A study of Mus musculus with 6 samples.

Results

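Transforming growth factor beta (TGF-beta) pathway genes were examined in mouse mammary tumours of a pair of crosses. The 10 genes encode the ligands Tgfb1, Tgfb2 and Tgfb3, the latency protein Ltbp1, the receptors Tgfbr1, Tgfbr2 and Tgfbr3, the intracellular mediators Smad3 and Smad7, and the matrix protein Tgfbi. This list was chosen with earlier results of these data known. Its probe sets were taken by symbol alone, as every probe set annotated to exactly 1 gene symbol where that symbol was on the list. This gave 20 of 22626 probe sets, and all 10 of the 12393 genes so annotated were found. Genes with several probe sets are described first by the brightest, the one with the highest mean over the 6 arrays, and then by the rest.

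The samples were snap-frozen tumours of adult F1 females. In 3 samples the parents were AKR/J and PyMT (AKR F1 tumours), and in the other 3 they were DBA/2J and PyMT (DBA F1 tumours). PyMT stands for a transgene of the middle T antigen of mouse polyomavirus, shared by both crosses; its promoter and the strain of the PyMT parent are not given in the sources used here. The comparison asks how the untreated tumours of these genotypes differ in gene expression.

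TGF-beta ligands are secreted in a latent form, bound to their own propeptide and to a latent TGF-beta binding protein that tethers them to the matrix. Once released, a ligand joins the type II receptor to the type I receptor, which phosphorylates SMAD2 and SMAD3; these enter the nucleus with SMAD4, and SMAD7 is induced as a feedback inhibitor. In mammary epithelium the pathway is known for restraining growth, and in advanced tumours for supporting matrix deposition, invasion and metastasis.

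Array medians ran from 7.52 to 7.57 log2 units. The luminal epithelial markers Krt8, Krt18, Krt19, Epcam, Cdh1 and Elf5 read between 9.71 and 13.17 on the 6 arrays, so the labelled tissue had its defining epithelial transcripts. Several arrays stood apart in their other tissue. The mean of 6 skeletal muscle markers was 11.71 on DBA replicate 1, 6.31 and 6.25 on DBA replicates 2 and 3, and 8.56 to 10.01 on the AKR arrays. The mean of 6 fibroblast markers was lowest on the array numbered 2 of each cross, at 8.61 in AKR F1 and 8.03 in DBA F1 tumours, against 9.71 to 10.25 on the others. Control probe sets at the 3′ and 5′ ends of the Gapdh transcript differed by 1.20 and 0.75 on DBA replicates 1 and 3 and by 0.05 to 0.31 on the other arrays. Those of beta-actin differed by 0.90 and 0.69 on DBA replicates 1 and 3 and by 0.34 to 0.51 on the other arrays. Separate animals are not stated in the labels; the spread behind each p-value is that of these samples and may be technical. In whole tumours, fewer cells of a type and less RNA per cell cannot be told apart.

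Tgfb1 and Smad3 lay higher in all 3 AKR F1 tumours than in any DBA F1 tumour, by 2.14-fold and 1.48-fold, and Tgfbi lay lower in all 3 AKR F1 tumours, by 2.13-fold. Ltbp1 had the widest difference, 2.31-fold lower on average in AKR F1 tumours, with overlapping values. Smad7 read almost the same in both crosses. None of the 20 probe sets passed an adjusted p of 0.05 by limma, where 22 of 22626 probe sets passed (0.0972% called).

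At an unadjusted p under 0.05 by limma there were 7 of the 20 probe sets, or 35%, against 26.1% of all probe sets; 3 were higher in AKR F1 and 4 in DBA F1 tumours. The values of the crosses did not overlap at 4 of the 20 (20%), where 39.2% of all probe sets did not overlap. AKR lay above without overlap at 2 of the 20 (23.4% of all probe sets) and below at 2 of the 20 (15.8% of all). The share without overlap was thus below the background, and the share under the unadjusted threshold somewhat above it. The median log2 difference, AKR minus DBA, was -0.20 over the 20 probe sets and 0.05 over all probe sets, with 13 of the 20 below 0 (65%, against 45.4% of all). After quantile normalization 11 of the 20 were below 0, against 10192 of all 22626 probe sets. Several of the 20 measure the same gene. By gene, at the brightest probe set, 7 of 10 were below 0 (70%, against 45.2% of all genes), and 5 of 10 after quantile normalization. The members also varied more within a cross than most probe sets: their median SD was 0.41 in AKR F1 and 0.32 in DBA F1 tumours, against 0.21 and 0.15 over all probe sets.

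**Figure D1:**
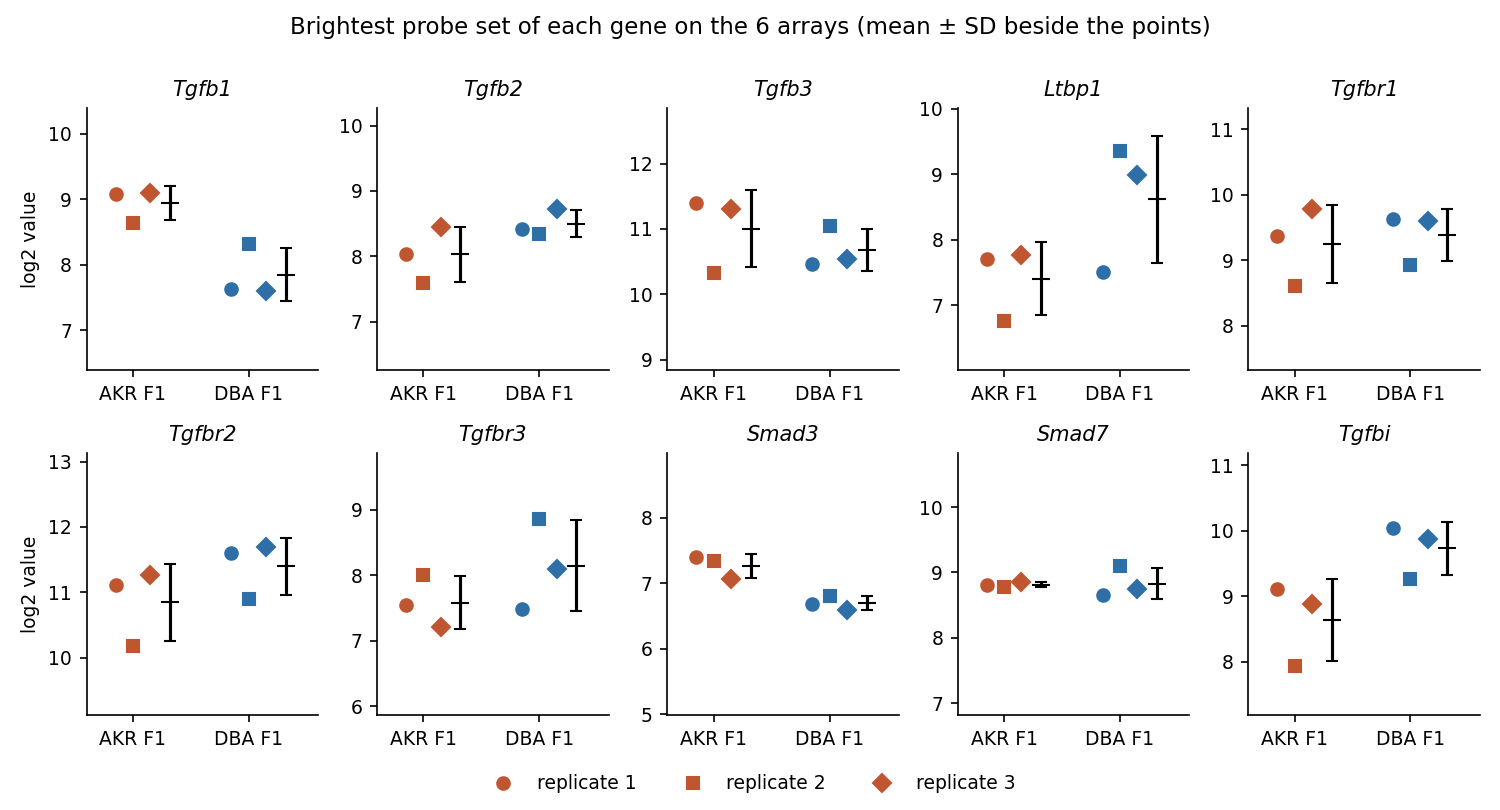
Log2 value of the brightest probe set of each of the 10 genes (y axis, 4 log2 units in every panel) in the 3 AKR F1 and 3 DBA F1 tumours; symbols mark the replicate, and the bar beside them is the mean with its SD. Tgfb1, Smad3 and Tgfbi are the 3 panels in which the crosses do not overlap.

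The promoters of those 3 genes are shown because they are the ones whose crosses did not overlap at the brightest probe set. The sequences are from RefSeq, build GRCm38.p6, 5′ to 3′ on the strand of the gene, from 250 bases before the annotated start to 50 bases after it. Capitals mark each GC box, GGGCGG or its reverse complement CCGCCC, the motif bound by Sp1-type factors. The windows are chr7:25686752-25687051 (+ strand) for Tgfb1, chr9:63757945-63758244 (- strand) for Smad3 and chr13:56609336-56609635 (+ strand) for Tgfbi.
Tgfb1 promoter: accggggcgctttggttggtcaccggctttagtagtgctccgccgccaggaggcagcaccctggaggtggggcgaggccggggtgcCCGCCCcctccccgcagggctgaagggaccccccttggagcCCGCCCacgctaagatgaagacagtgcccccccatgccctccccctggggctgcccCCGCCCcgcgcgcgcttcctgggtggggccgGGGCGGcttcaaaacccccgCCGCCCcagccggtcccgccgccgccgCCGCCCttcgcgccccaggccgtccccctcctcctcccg
Smad3 promoter: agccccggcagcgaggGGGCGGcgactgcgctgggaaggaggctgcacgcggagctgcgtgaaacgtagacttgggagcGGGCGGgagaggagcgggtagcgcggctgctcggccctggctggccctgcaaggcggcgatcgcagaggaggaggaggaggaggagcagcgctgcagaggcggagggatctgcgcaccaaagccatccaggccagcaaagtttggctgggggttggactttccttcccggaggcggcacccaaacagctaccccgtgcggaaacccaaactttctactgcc
Tgfbi promoter: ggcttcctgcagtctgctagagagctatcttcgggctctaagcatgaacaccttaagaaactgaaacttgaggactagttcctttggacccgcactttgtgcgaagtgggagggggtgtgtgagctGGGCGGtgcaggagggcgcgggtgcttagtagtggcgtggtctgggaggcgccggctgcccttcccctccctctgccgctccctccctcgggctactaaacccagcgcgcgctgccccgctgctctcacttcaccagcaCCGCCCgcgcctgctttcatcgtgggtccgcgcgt
The Tgfb1 window held 6 GC boxes and was 77% G and C, the Smad3 window held 2 and was 67.7%, and the Tgfbi window held 2 and was 63.3%. A GC box was present in 35.7% of 32851 promoter windows of this length, whose median G and C content was 52.7%. Neither the AP-1 motif TGANTCA (7.81% of promoters) nor the SMAD palindrome GTCTAGAC (0.213%) nor the TATA box TATAAA (13.6%) was found in these 3 windows, on either strand. No window of Tgfb3, Tgfbr3 or Smad7 was searched, so nothing is said here of their motifs. Windows were searched for 7 of the 10 genes, 9 in all. Among them, Tgfb2 had the only TATA box, 31 bases before its start, and the first of the 2 windows of Tgfbr1 had 2 GC boxes. The windows of Ltbp1 and Tgfbr2 held none of the 4 motifs. A match says that the letters are present; binding was not measured.

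Of the ligands, Tgfb1, the isoform made by most cell types including leukocytes and platelets, read 9.08, 8.64 and 9.10 in AKR F1 tumours and 7.63, 8.31 and 7.60 in DBA F1 tumours. DBA replicate 2 was the highest of its cross and lay 0.33 below the lowest AKR array, while the other DBA arrays lay about 1 log2 unit below it. The log2 difference was 1.10 (SE 0.234, 95% interval 0.54 to 1.65; adjusted p = 0.0924 by limma), rank 584 of all probe sets by p. It did not pass 0.05, and it was the only member that passed at 0.10, where 3.58% of all probe sets did. Values of Tgfb1 were 8.94 ± 0.26 in AKR F1 and 7.84 ± 0.40 in DBA F1 tumours (± SD of n = 3 arrays). It has 1 probe set here. The mean of 6 macrophage markers was 8.70 to 9.67 in AKR F1 and 9.20 to 9.79 in DBA F1 tumours, and that of 4 platelet markers 6.93 to 7.26 and 7.05 to 7.19, and both means overlapped between the crosses. Of the 6 macrophage markers 5 were lower in AKR F1 tumours (3 after quantile normalization), and Cd68 differed by -0.47 without overlap. Of the 4 platelet markers 2 were lower and 2 higher, and Pf4 differed by -0.35 without overlap. Of 5 lymphocyte markers (median difference 0.28) 3 were higher in AKR F1 tumours, with array means of 6.64 to 6.97 there and 6.37 to 7.14 in DBA F1 tumours. Among them the T cell gene Cd3e read 8.46, 8.57 and 8.33 in AKR F1 tumours and 8.17, 7.94 and 7.80 in DBA F1 tumours, without overlap, as for Tgfb1. The other T cell genes of the list did not share this: Cd8a differed by 0.28 and Cd3g by -0.06, both with overlapping crosses. The part of leukocyte RNA in the Tgfb1 values was not tested. The DBA arrays low in Tgfb1, replicates 1 and 3, had Gapdh end differences of 1.20 and 0.75, against 0.12 on DBA replicate 2. Whether this difference in the RNA bears on the Tgfb1 values was not tested.

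Tgfb2, a ligand better known from epithelium and embryonic tissue, read 8.04, 7.60 and 8.45 in AKR F1 and 8.42, 8.34 and 8.73 in DBA F1 tumours. Its highest AKR array lay above 2 DBA arrays, so the crosses overlapped, and the difference was -0.47 (SE 0.232; adjusted p = 0.233 by limma), or -0.25 without AKR replicate 2. A second Tgfb2 probe set differed by -0.46, and the third, which was dim at 6.20 in AKR F1 and 5.99 in DBA F1 tumours, by 0.21. The second was 0.01 without AKR replicate 2 and -0.78 without AKR replicate 3. With single arrays left out the third ran from -0.06 without AKR replicate 3 to 0.56 without AKR replicate 2. Tgfb3, the isoform that rises in the involuting mammary gland, read 11.39, 10.33 and 11.30 in AKR F1 and 10.46, 11.05 and 10.54 in DBA F1 tumours. The low AKR replicate 2 lay below every DBA array and the others above every DBA array. Its difference was 0.33 (SE 0.311; adjusted p = 0.481 by limma), and single arrays left out moved it from 0.13 (without AKR replicate 1) and 0.18 (without AKR replicate 3) to 0.51 (without DBA replicate 2) and 0.66 (without AKR replicate 2).

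Within each array, Tgfb1 minus Tgfb2 was 1.03, 1.04 and 0.65 in AKR F1 tumours and -0.79, -0.04 and -1.13 in DBA F1 tumours. This pair was chosen because its members were seen to go opposite ways, so the values are a description, with no test. Levels of different probe sets are not comparable, and which ligand was more abundant cannot be read from them.

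Ltbp1, which holds latent TGF-beta in the matrix, read 7.70, 6.76 and 7.76 in AKR F1 and 7.51, 9.35 and 8.99 in DBA F1 tumours. DBA replicates 2 and 3 lay more than 1 log2 unit above every AKR array, whereas DBA replicate 1 lay among them. The difference was -1.21 (SE 0.507; adjusted p = 0.191 by limma), or 7.41 ± 0.56 against 8.61 ± 0.97 (± SD of n = 3 arrays). Of the 6 smooth muscle and myoepithelial markers 4 were lower in AKR F1 tumours, and their array means were 8.1, 9.0 and 9.48 in DBA F1 tumours and 8.13 to 8.55 in AKR F1 tumours. The list was not of one kind. The contractile genes Acta2 (10.37, 13.26 and 12.13) and Cnn1 (6.60, 9.89 and 8.32) were highest on DBA replicate 2, like Ltbp1, whereas Myh11 (6.64, 7.68 and 8.19) was highest on DBA replicate 3. The keratin genes Krt5 (8.91, 7.43 and 9.62) and Krt14 (9.33, 7.43 and 10.21) were lowest on DBA replicate 2. The part of these cells in the Ltbp1 values was not tested. Without AKR replicate 2 and DBA replicate 1 together, Ltbp1 differed by -1.44 and passed (adjusted p = 0.0232 by limma, the lowest of a range up to 0.467 over all settings). With single arrays left out it ran from -0.84, without DBA replicate 2, to -1.76, without DBA replicate 1, and did not pass.

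Among the receptors, the type I receptor gene Tgfbr1 read 9.37, 8.61 and 9.78 in AKR F1 and 9.63, 8.93 and 9.60 in DBA F1 tumours. The crosses covered nearly the same range, with a difference of -0.13 (95% interval -0.92 to 0.65; adjusted p = 0.795 by limma) that turned to 0.05 after quantile normalization. A dim Tgfbr1 probe set, at 5.77, 5.71 and 5.71 against 5.81, 6.32 and 6.32, did not overlap between the crosses and differed by -0.42 (adjusted p = 0.182 by limma). The remaining Tgfbr1 probe set differed by -0.18.

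Tgfbr2, the type II receptor that binds the ligand, was the member whose probe sets disagreed most. The brightest read 11.11, 10.18 and 11.27 in AKR F1 and 11.61, 10.90 and 11.69 in DBA F1 tumours, a difference of -0.55 (SE 0.338; adjusted p = 0.304 by limma), or -0.21 without AKR replicate 2 and -0.29 after quantile normalization. Another Tgfbr2 probe set, built on a different transcript record, read 8.89, 8.03 and 8.33 in AKR F1 and 7.54, 8.23 and 7.68 in DBA F1 tumours, a difference of 0.60 (SE 0.271; adjusted p = 0.209 by limma), or 0.36 without AKR replicate 1. Within arrays, the latter minus the brightest was -2.22, -2.15 and -2.94 in AKR F1 and -4.07, -2.68 and -4.00 in DBA F1 tumours. The crosses differed by 1.15 in this quantity and overlapped at 1 array; the pair was chosen after its values were seen, and no test is given. The third Tgfbr2 probe set was among the dimmest of all (percentile 1.86 by mean level), at 4.34 in AKR F1 and 4.16 in DBA F1 tumours, and differed by 0.17. With the probe sets of the gene averaged, Tgfbr2 differed by 0.07, so these data give no single direction for it; whether the probes see different transcripts or strain variants was not tested.

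Tgfbr3, or betaglycan, a co-receptor that presents ligand to the type II receptor, read 7.54, 8.0 and 7.20 in AKR F1 and 7.48, 8.86 and 8.09 in DBA F1 tumours. DBA replicate 2 was the highest and DBA replicate 1 lay below AKR replicate 1. The difference was -0.56 (SE 0.366; adjusted p = 0.322 by limma) and ran from -0.21, without DBA replicate 2, to -0.89, without DBA replicate 1.

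Smad3, which carries the signal to the nucleus, read 7.40, 7.34 and 7.06 in AKR F1 and 6.69, 6.81 and 6.59 in DBA F1 tumours. The lowest AKR array lay 0.24 above the highest DBA array, and the spread within each cross was small, at 7.27 ± 0.19 against 6.70 ± 0.11 (± SD of n = 3 arrays). The difference was 0.57 (SE 0.140, 95% interval 0.24 to 0.90; adjusted p = 0.105 by limma), and the dimmer Smad3 probe set differed by 0.44 with overlapping crosses. Probe sets as dim as Smad3 tended upward in AKR F1 tumours in these data: the median difference was 0.20 in its decile of mean level, decile 4, which leaves 0.37 for Smad3. For Tgfb1, in decile 7, the median was -0.07 and 1.17 was left. Smad7, the feedback inhibitor, read 8.81, 8.78 and 8.85 in AKR F1 and 8.65, 9.10 and 8.74 in DBA F1 tumours, with all AKR values inside the DBA range. Its difference was -0.02 (95% interval -0.37 to 0.33; adjusted p = 0.939 by limma), and its sign turned to 0.12 after quantile normalization.

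Tgfbi, a matrix protein that binds integrins and is named for its induction by TGF-beta, read 9.11, 7.93 and 8.88 in AKR F1 and 10.05, 9.27 and 9.88 in DBA F1 tumours. The highest AKR array lay 0.16 below the lowest DBA array, and in both crosses the array numbered 2 was lowest. The difference was -1.09 (SE 0.344, 95% interval -1.91 to -0.27; adjusted p = 0.136 by limma), at 8.64 ± 0.62 against 9.73 ± 0.41 (± SD of n = 3 arrays), and -0.74 without AKR replicate 2. All 4 Tgfbi probe sets were lower in AKR F1 tumours, by -0.23 to -1.09, and their values over the 6 arrays had Pearson correlations of 0.87 to 0.98 with each other, given as a description.

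**Figure D2:**
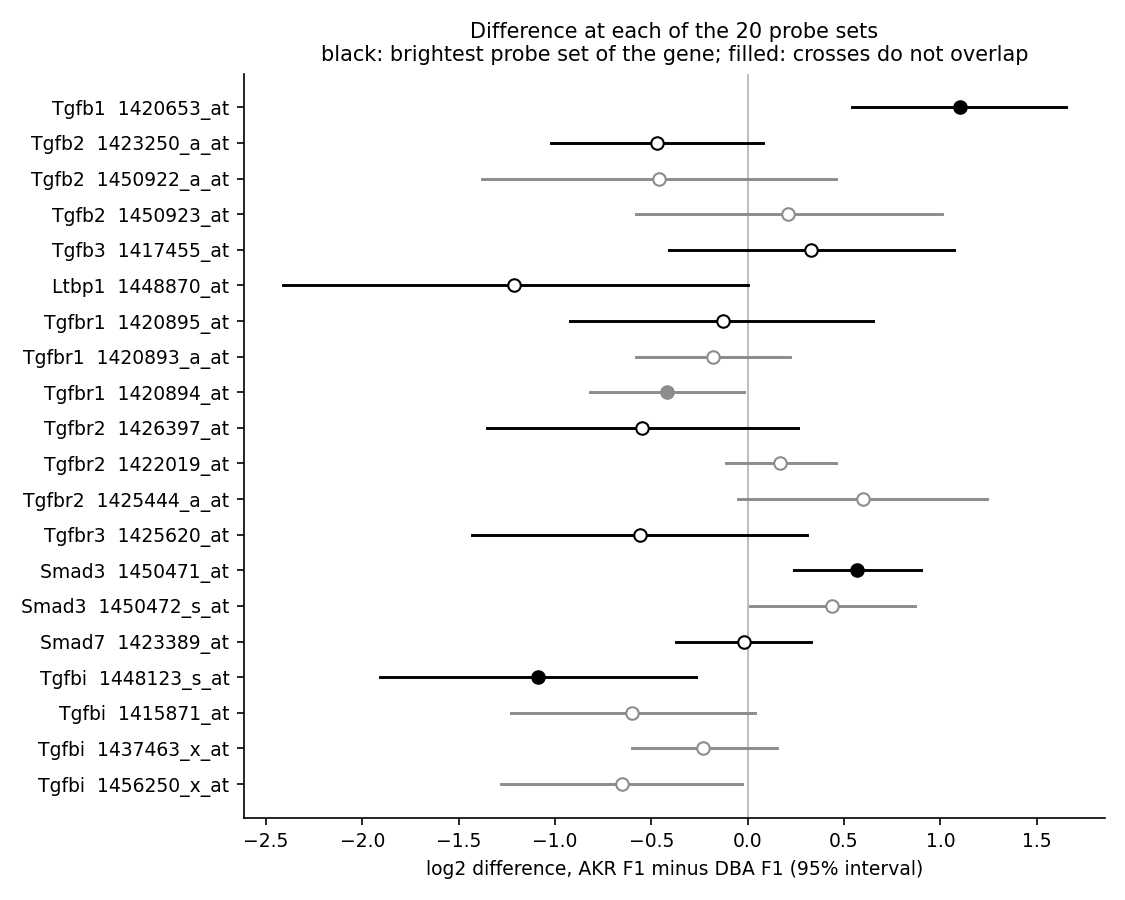
Log2 difference, AKR F1 minus DBA F1, at each of the 20 probe sets, with its 95% interval from limma; black marks the brightest probe set of a gene and grey the rest, and filled points have crosses that do not overlap. The 4 Tgfbi points lie left of 0 and both Smad3 points right of it, whereas the points of Tgfb2 and Tgfbr2 lie on both sides.

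The array numbered 2 in AKR F1 tumours held the lowest value of its cross at 15 of the 20 probe sets, where it was lowest at 48.7% of all probe sets. At the brightest probe set, 4 genes, Tgfb2, Tgfbr1, Tgfbr2 and Tgfbi, were lowest on replicate 2 in both crosses, and Tgfbr3 was highest on it in both. Replicate numbers carry no link between the crosses. These were also the arrays with the lowest mean of 6 fibroblast markers, given above, and the lowest mean of 6 macrophage markers in each cross, at 8.70 in AKR F1 and 9.20 in DBA F1 tumours. The part of stromal and macrophage RNA in these values was not tested. Over the 6 arrays the Pearson correlation, as a description that includes the difference between crosses, was 0.92 between Tgfbr2 and Tgfbi, 0.90 between Tgfbr2 and Tgfb2, 0.90 between Tgfbr2 and Tgfbr1, and 0.86 between Tgfb1 and Smad3.

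**Figure D3:**
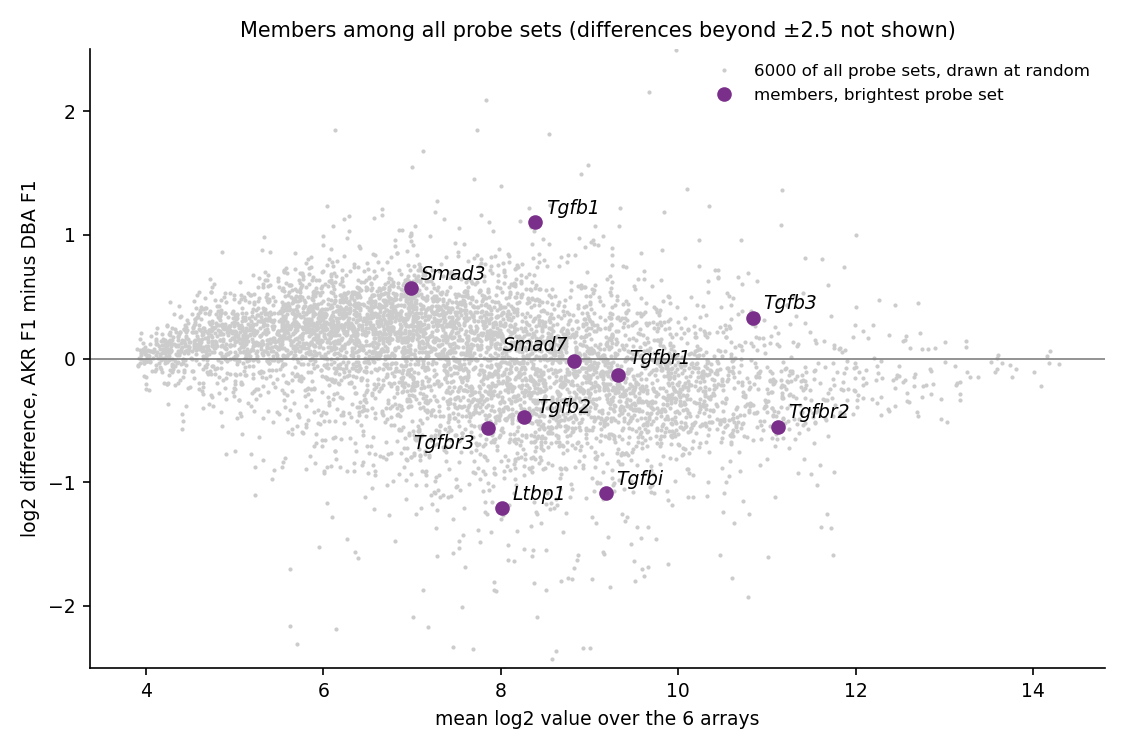
Log2 difference, AKR F1 minus DBA F1, against the mean log2 value over the 6 arrays; grey points are 6000 of all probe sets drawn at random, and purple points are the brightest probe sets of the 10 genes. Tgfb1 at 1.10 and Ltbp1 at -1.21 lie at the upper and lower ends of the members, while Smad7 at -0.02 lies in the middle of the grey points.

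Genes most like a member were taken as those whose brightest probe set had the highest Pearson correlation with it over the 6 arrays, among the brighter part of all genes. For Tgfb1, of 6195 genes, these were E130309D02Rik (0.998), the histone methyltransferase gene Kmt5c (0.996) and the co-chaperone gene Sgta (0.994). For Smad3 they were Dcpp3 (0.995), Wiz (0.988) and the folate enzyme gene Fpgs (0.985). For Tgfbi they were Eapp (0.999), the zinc transporter gene Slc30a6 (0.997) and Chrac1 (0.995). With 6 arrays and so many candidates such high values are easily found, and none of these 9 genes passed by limma.

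The other genes of the pathway were grouped by role, and 57 of 64 listed genes were measured. None passed an adjusted p of 0.05 by limma, and 14 had an unadjusted p under 0.05, or 24.6% against the 26.1% background. The crosses did not overlap at 17 of the 57 (29.8%, against 39.2% of all probe sets), 9 with AKR above and 8 with AKR below. Their median difference was -0.09, with 37 of 57 (64.9%) below 0, against 45.2% of all genes. After quantile normalization 30 of the 57 were below 0 and the median was -0.03.

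Of 7 genes of latency and activation (median 0.01), Ltbp4, a further latent TGF-beta binding protein, read 8.80, 8.64 and 8.44 in AKR F1 and 8.33, 8.08 and 8.05 in DBA F1 tumours, a difference of 0.48. Ltbp1 and Ltbp4 thus pointed opposite ways. Thrombospondin 1, Thbs1, which can release active ligand from the latent complex, read 10.09, 9.46 and 9.99 against 10.13, 10.90 and 11.03, a difference of -0.84. Of 8 related ligands and antagonists (median -0.09), follistatin, Fst, which traps activin, differed by -0.70, or -0.26 without DBA replicate 2 and -1.15 without DBA replicate 1. The BMP antagonist Nog differed by 0.38, or 0.14 without AKR replicate 2. The crosses overlapped for all 8.

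Of 11 related receptors (median 0.19), 6 did not overlap between the crosses (54.5%, against 39.2% of all probe sets). AKR lay above without overlap at 5 of the 11, as at 23.4% of all probe sets. Of these 5, Acvr2b, Acvr1c and Bmpr1b were dim, in deciles 4, 3 and 1 of mean level. The median differences of those deciles were 0.20, 0.23 and 0.12. The genes themselves differed by 0.47, 0.28 and 0.82, or by 0.38, 0.13 and 0.69 after quantile normalization. Eng was brighter, in decile 8, whose median difference was -0.14. It read 9.05, 8.91 and 8.86 in AKR F1 and 8.25, 8.83 and 8.26 in DBA F1 tumours. Its difference was 0.49, or 0.61 after quantile normalization. Acvrl1, a type I receptor of endothelium also called ALK1, read 8.32, 8.74 and 8.09 in AKR F1 and 7.79, 7.70 and 7.65 in DBA F1 tumours, a difference of 0.67. Bmpr1a, a BMP type I receptor, went the other way at -0.53, or -0.33 after quantile normalization and also -0.33 with its probe sets averaged. The 6 endothelial markers differed by a median of -0.08, 4 of 6 being below 0, with array means of 7.29 to 7.72 in AKR F1 and 7.31 to 7.82 in DBA F1 tumours. They were split: Plvap was higher in AKR F1 tumours by 0.47 without overlap, and Emcn differed by -0.37 with overlap. The part of endothelial RNA in the Acvrl1 values was not tested.

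Of 6 further SMAD genes (median -0.02), Smad2, the partner of Smad3 downstream of the type I receptor, read 8.64, 8.18 and 8.55 in AKR F1 and 8.85, 9.06 and 9.11 in DBA F1 tumours. Its difference was -0.55, opposite to that of Smad3, and the crosses did not overlap for either gene (adjusted p = 0.127 for Smad2 by limma). Smad5, a mediator of BMP signals, differed by 0.57. Of 11 SMAD regulators (median -0.12), 10 lay lower in AKR F1 tumours, most by small amounts, against 45.4% of all probe sets. The count rests on the scaling: after quantile normalization 5 of the 11 lay lower, with a median of 0.07. The receptor-binding inhibitor Strap read 9.86, 9.43 and 9.61 against 10.25, 10.22 and 10.19, a difference of -0.58 (-0.36 after quantile normalization). With the probe sets of the gene averaged, Strap differed by only -0.22. The deubiquitinase gene Usp15 differed by -0.60.

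Of 14 target genes (median -0.33), 11 lay lower in AKR F1 tumours, against 45.4% of all probe sets. Ccn2, or connective tissue growth factor, read 10.18, 9.39 and 9.90 in AKR F1 and 10.77, 12.26 and 12.22 in DBA F1 tumours. DBA replicates 2 and 3 were highest, as for Ltbp1, and the difference was -1.93 (SE 0.427; adjusted p = 0.0952 by limma). Periostin, Postn, a matrix protein close in structure to Tgfbi, read 11.62, 10.57 and 11.90 in AKR F1 and 12.13, 12.35 and 12.51 in DBA F1 tumours, a difference of -0.96 with no overlap, or -0.57 without AKR replicate 2. Tagln read 9.02, 8.69 and 8.44 in AKR F1 and 8.68, 11.41 and 10.57 in DBA F1 tumours, a difference of -1.50 with overlap. The contractile genes Acta2, Cnn1 and Myh11, given above, were also highest on DBA replicates 2 and 3, whereas Krt5 and Krt14 were lowest on DBA replicate 2. The part of contractile cells in the Ccn2 and Tagln values was not tested. The fibroblast markers differed by a median of 0.07, 3 of 6 being below 0. Col1a1, the main fibrillar collagen gene, differed by 1.09 in the other direction with wide spread, at 12.00, 9.26 and 11.35 on the DBA arrays.

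**Figure D4:**
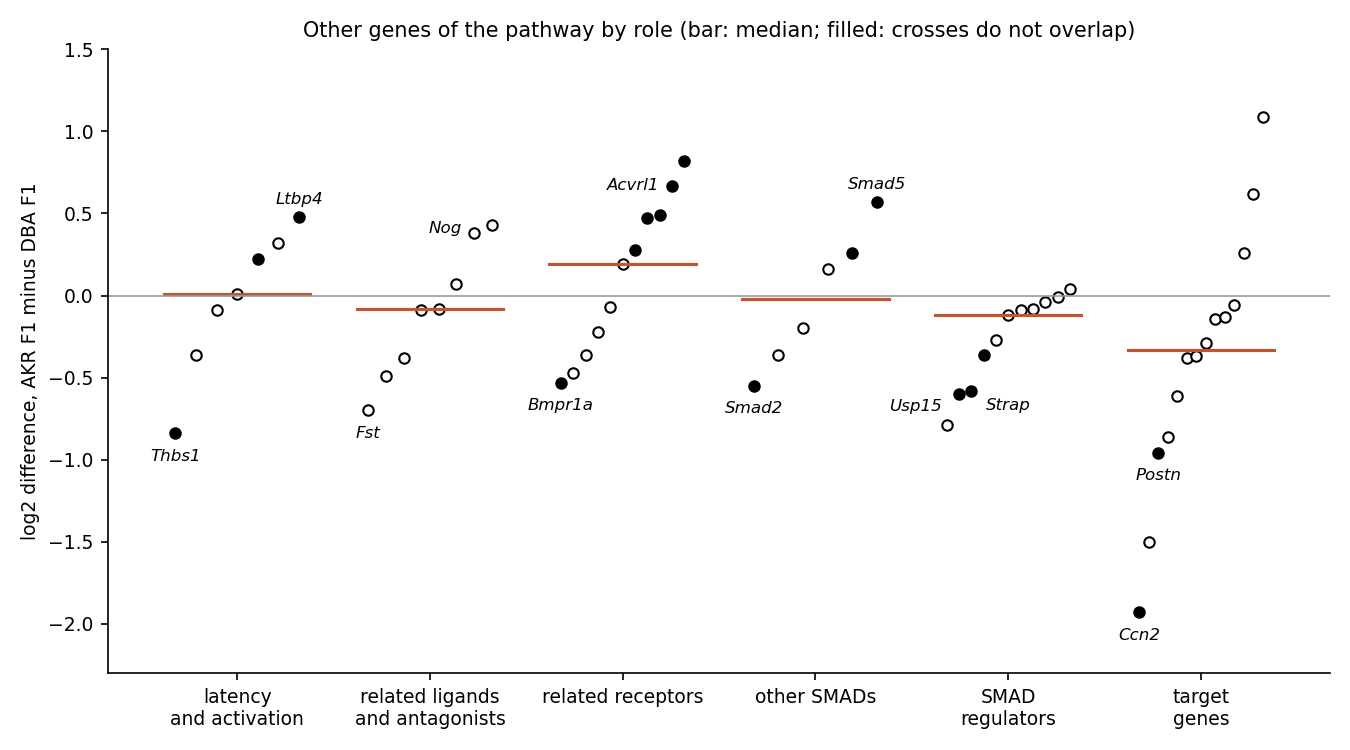
Log2 difference, AKR F1 minus DBA F1, of the 57 other pathway genes at their brightest probe sets, grouped by role; bars are medians and filled points have crosses that do not overlap. The target genes reach from 1.09 down to -1.93 for Ccn2, and the filled points of the related receptors lie above 0 apart from Bmpr1a.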

How the data were processed

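Total RNA of each tumour was extracted with Trizol and biotin-labelled for Affymetrix arrays, per the labels' protocols. The deposited table holds log2 values of 22690 probe sets on 6 arrays; the log2 scale was read from the values, which run from 3.65 to 14.73. Per the submitters' processing notes, both MAS5 and RMA were in use, without versions; which of them gave the deposited values is not stated, so background correction and between-array scaling are unknown. No detection calls were used, and dim values can lie at background and compress differences.

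The 64 control probe sets were set aside, leaving 22626: 20380 with 1 gene symbol in the platform annotation, 691 with several and 1555 with none. All 10 genes matched the gene table of GRCm38.p6 by identifier. A limma model (version 3.58.1, R 4.3.3; lmFit, eBayes, two-sided tests) compared the crosses on the whole table, with p adjusted by Benjamini-Hochberg over the 22626 probe sets and a threshold of 0.05. Each difference is AKR minus DBA. Replicate numbers follow accession order and only name samples. Figures used matplotlib 3.10.9 in Python 3.11.15.

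Named genes were all probe sets of the members, the 2 genes of each role list with the smallest p, and the 3 genes most correlated with each of the 3 members of smallest p. Cd3e, Cd3g, Cd8a, Cd68, Pf4, Plvap, Emcn, Eng, Col1a1, Tagln, the dim related receptors and the muscle and keratin genes were named after their values were seen. The members and lists were chosen with earlier results of these data known. Alternatives were quantile normalization, median centring, a brightness filter, a trended and robust prior, array weights, averaging of the probe sets of each gene, a threshold of 0.10, and arrays left out.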

Additional observations from a re-analysis of the deposited data

How the results depend on the processing

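The count of the 20 probe sets that passed was 0 under quantile normalization, median centring, the brightness filter (14 probe sets left), the trended and robust prior, averaging a gene's probe sets and each array left out in turn. It was 1 at an adjusted p of 0.10 (Tgfb1) and also 1 when AKR replicate 2 was left out together with DBA replicate 1 (Ltbp1). With array weights it was 11, but the estimation of the weights stopped before convergence and gave AKR replicate 1 a weight of 38.2 against 0.123 to 1.18 for the others, so these calls rest mostly on 1 AKR array. Of the 57 other pathway genes 1 passed at 0.10, 4 without both arrays, 22 with array weights, and 0 to 2 with single arrays left out. Of all probe sets 36 passed after quantile normalization, 102 among the brighter probe sets, 1 with 1 mean per gene, 810 at 0.10, 657 without both arrays, 9969 with array weights and 1 to 263 with single arrays left out. Of 264 recomputed member differences 254 kept their direction, and 15 of 20 probe sets kept it in every setting. Those that turned were Smad7 (0.12 after quantile normalization, 0.02 with array weights, and -0.11 to 0.12 with single arrays left out, the latter without DBA replicate 2), the brightest Tgfbr1 probe set (0.05 after quantile normalization, 0.31 without both arrays, and -0.40 to 0.19 with single arrays left out, the latter without AKR replicate 2), a Tgfb2 probe set (0.11 without both arrays, and -0.78 to 0.01 with single arrays left out, the latter without AKR replicate 2), the dim Tgfb2 probe set (-0.06 without AKR replicate 3, up to 0.56 without AKR replicate 2) and Tgfbr2 (0.07 as the mean of its probe sets); the cause was not tested. Tgfb1 ran from 0.97 to 1.33, Smad3 from 0.48 to 0.73 and Tgfbi from -1.33 to -0.58 over all settings. The 12 named pathway genes and the 2 within-array comparisons, added after the data were seen, turned in none. The genes were picked by smallest p and the comparisons by their direction in these same data, so a kept sign is no added support. No paired analysis was done, because the labels give no pairing of samples between the crosses. Precision is limited by 3 arrays per cross.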
